A study of Mus musculus with 6 samples.

Results

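The circadian clock genes described here were Arntl, Npas2, Cry1 and Rora, which were read out by 5 probe rows of the 21446 rows on the array. A row was a member if the platform annotation gave it exactly 1 gene symbol and that symbol was Arntl, Npas2, Cry1 or Rora. Arntl, Npas2 and Cry1 had 1 such row each and Rora had 2, and all 5 rows held a value on all 6 arrays. Another 2 rows listed Arntl together with a second symbol and were left out. The members were selected on their log2 ratios at 6 and 24 hours, with those ratios already known. Their values are therefore given as a description, without tests, and support nothing beyond themselves.

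All mice were 4 weeks old and of the strain C57BL/6J-Ghrhr<lit> (lit/lit), in which the disrupted receptor for growth hormone-releasing hormone leaves the animal short of growth hormone (GH). GH-treated mice had received 1 subcutaneous injection of GH at 4 mg/kg and control mice 1 injection of phosphate-buffered saline (PBS), and bone RNA was prepared after 6 or 24 hours. Each sample pooled the RNA of 2 animals of 1 group, and each of 6 two-colour arrays set a Cy5-labelled GH pool against a Cy3-labelled PBS pool, 3 arrays at 6 hours (replicates 1 to 3) and 3 at 24 hours (replicates 4 to 6). Controls and treated mice carried the same lit/lit mutation, so no mouse with normal GH was compared. No source used here gives the hour of day at injection or at collection, and by the design text each interval had its own PBS animals.

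The circadian clock is a feedback loop of transcription factors. BMAL1, the protein of Arntl, pairs with CLOCK or its relative NPAS2, binds E-box sequences and activates the Per and Cry genes, whose proteins then repress that pair. A second loop joins the nuclear receptors: the ROR proteins activate Arntl and the REV-ERB proteins (genes Nr1d1 and Nr1d2) repress it through a shared DNA element. The loop runs in most peripheral tissues, bone included.

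The promoter windows of RefSeq (build GRCm38.p6, 250 bases before to 50 after a transcript start) were searched on both strands because the members belong to loops that act through known elements. They are shown here to place those elements, since no file used here holds the array's probes. All 4 genes had a window, Arntl 2 of them. The letters searched were CACGTG (E-box), CACGTT (E'-box), TAGGTCA and TGGGTCA (core of the ROR and REV-ERB element), TTANGTAA (D-box) and TTCNNNGAA (site of the type bound by STAT5, which GH activates). No letters overlapped in the matches of the members. Arntl had TAGGTCA at positions 31 to 37 after 1 of its starts, on the gene's own strand, and 2.61% of all 32851 windows held these letters. Cry1 had CACGTG at positions -60 to -55 (7.15% of all windows) and, on the other strand, CACGTT at -79 to -74 (4.69%). TGGGTCA (3.98% of all windows), TTANGTAA (2.32%) and TTCNNNGAA (8.30%) were not in any window of the 4 genes, and Npas2 and Rora held none of the searched letters. A match is a string of letters only, and its absence says nothing about binding. The first sequence below runs through the Arntl match at chr7:113207530-113207559 (plus strand), and the others are the 100 bases before the start of Cry1 at chr10:85185055-85185154 (minus strand), Npas2 at chr1:39194172-39194271 (plus) and Rora at chr9:68653686-68653785 (plus), each 5′ to 3′ along the gene with matched letters in capitals.
Arntl: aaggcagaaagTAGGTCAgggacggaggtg
Cry1: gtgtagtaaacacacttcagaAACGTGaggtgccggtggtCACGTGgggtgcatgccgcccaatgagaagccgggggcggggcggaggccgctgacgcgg
Npas2: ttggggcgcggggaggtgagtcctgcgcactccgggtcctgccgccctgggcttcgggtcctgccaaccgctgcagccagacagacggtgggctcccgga
Rora: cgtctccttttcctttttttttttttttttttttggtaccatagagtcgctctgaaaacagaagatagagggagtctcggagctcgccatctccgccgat

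All values are log2 ratios, GH divided by PBS, a direction that is likely from the dyes and sample names in the labels and is not stated in the value table. No array had swapped dyes, so a dye bias of a probe cannot be told apart from a difference between GH and PBS. The table holds ratios only, so neither the level of a clock gene in bone nor that of any bone marker is known, and the tissue label could not be checked. The ratios spread least on replicate 1 (SD 0.466) and most on replicate 6 (0.913). The first array stood apart: its ratios correlated with those of the other arrays at r = 0.22 to 0.36 over rows, against 0.56 to 0.82 for the 10 pairs without it, where rows are not independent replicates. Rows of 1 gene were no more alike than rows of different genes. Over 2902 pairs of complete rows from 1809 genes, the means over the 6 arrays had the same sign in 50.9% of pairs and correlated at r = 0.04 over pairs, which are not independent. Over all pairs of rows of different named genes the signs matched in 50.4%. The median root mean square difference was 0.72 for rows of 1 gene and 0.67 for rows of different genes. Row numbers shifted by up to 300 places against the annotation gave r between -0.07 and 0.06, so no such shift brought the rows of a gene together. The gene names may therefore not describe what every row measured, and each value given for a gene is that of a row annotated with its name and no more.

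The members went 2 ways. The Arntl row and both Rora rows lay below 0 in the mean at 6 and at 24 hours, and the Npas2 and Cry1 rows lay above 0 at both times. Npas2 was the only member row whose values at the 2 times did not overlap, and its ratio was the larger at 24 hours. These signs of the means at each time held under all 13 alternatives tried for each row, but several of those could not change a mean. Leaving out an array of the other time, keeping complete rows only, and fitting a time alone returned the same value. The sign of the 24-minus-6-hour difference held under all 12 alternatives for Npas2 alone. Because its values at the 2 times did not overlap, most of these alternatives could not reverse that sign. Leaving out any array, adding the file prefix, keeping complete rows and averaging its only row were fixed in advance, so nothing is read from it.

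Arntl encodes BMAL1, the partner common to both activating pairs of the clock. Its row had log2 ratios of 0.31, -1.79 and -1.29 on replicates 1 to 3 at 6 hours. On replicates 4 to 6, at 24 hours, it had -1.22, -0.74 and -1.94. Thus 5 arrays lay below 0 and replicate 1 above it, and the values of the 2 times overlapped. The mean was -0.92 ± 1.09 (SD, n = 3 arrays) at 6 hours, 1.89-fold lower than PBS, and -1.30 ± 0.61 (n = 3) at 24 hours, 2.46-fold lower. Without replicate 1 the 6-hour mean was -1.54, 2.90-fold lower, and the difference between the times turned from -0.38 to 0.24.

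On the scale of each array, the Arntl row stood near the bottom of the list except on replicate 1. Only 2.07 to 10.4% of the values on replicates 2 to 6 were lower, whereas on replicate 1 it was 80.1%. Its spread at 6 hours was larger than that of 97.5% of the 17414 complete rows, with replicate 1 as its high value. The median ratio over 9 rows of neutrophil lineage markers shared its sign on each array, at 0.11 on replicate 1 and below 0 on the others, but not its order: on replicate 2, where Arntl was second lowest, that median was nearest to 0 among replicates 2 to 6 (-0.56). The part of these cells in the Arntl ratio was not tested, and in bulk RNA fewer cells of a type and less RNA per cell cannot be told apart.

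**Figure D1:**
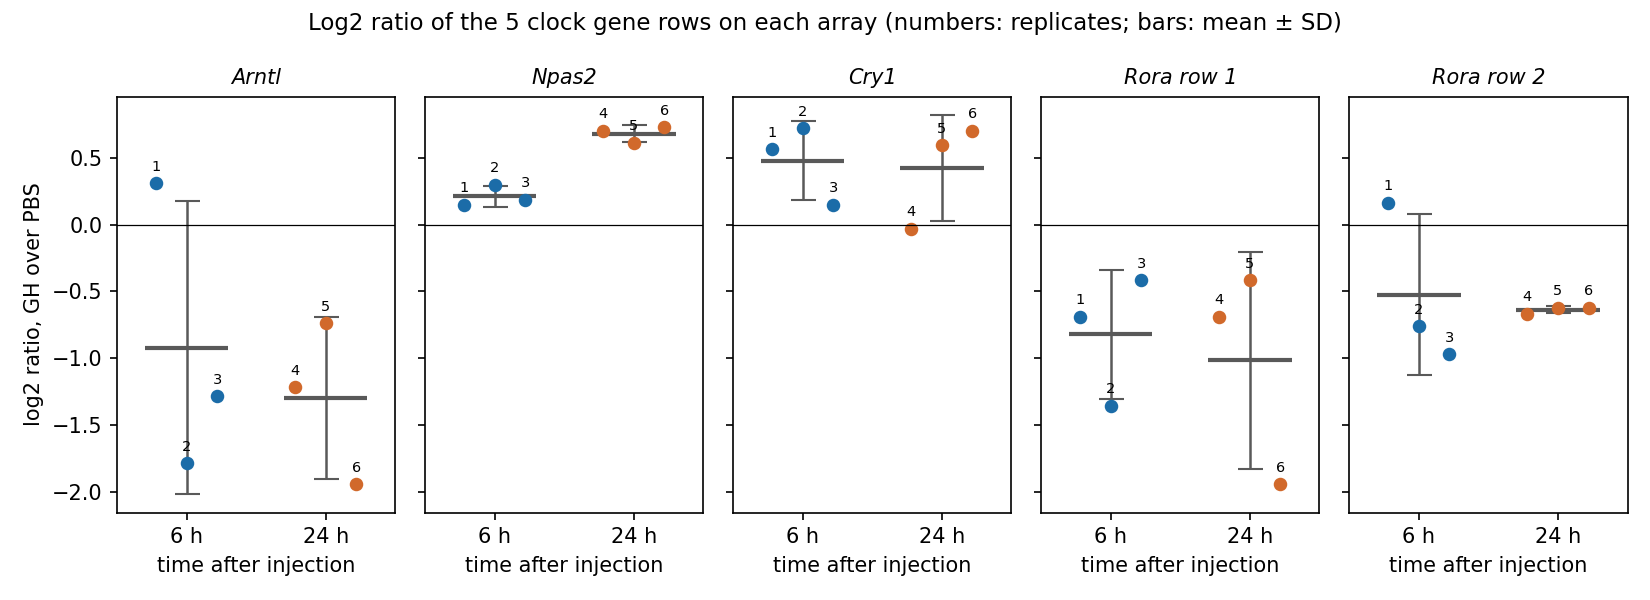
Log2 ratio of GH over PBS (vertical axis) of each of the 5 member rows on the 6 arrays, at 6 hours (blue) and 24 hours (orange) after injection; numbers are replicates, horizontal bars are means and whiskers are SDs over 3 arrays. The Npas2 points at 24 hours (0.61 to 0.73) all lie above those at 6 hours (0.15 to 0.30), and replicate 1 is the only Arntl point above 0.

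Npas2 encodes a relative of CLOCK that can take its place beside BMAL1. Its row had 0.15, 0.30 and 0.19 on the 6-hour arrays. On the 24-hour arrays it had 0.70, 0.61 and 0.73. All 6 ratios were above 0, and the lowest at 24 hours was above the highest at 6 hours. The mean was 0.21 ± 0.08 (SD, n = 3) at 6 hours, 1.16-fold, and 0.68 ± 0.06 (n = 3) at 24 hours, 1.61-fold. The difference of 0.47 compares with a median absolute difference of 0.18 over all complete rows, and 86.4% of those rows had a smaller one.

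The Npas2 arrays also agreed closely with one another. Of the complete rows, 7.45% had a smaller SD at 6 hours and 5.71% a smaller SD at 24 hours. Between 62.8 and 72.5% of values were lower on the 6-hour arrays, against 82.6 to 87.5% on the 24-hour arrays. Separate times of 3 arrays each were found in 8.74% of all complete rows, and 1 sign on all 6 arrays in 33.4%. Of the 5 member rows, 1 had separate times (Npas2) and 2 had 1 sign throughout (Npas2 and row 1 of Rora), and since these ratios chose the members nothing is read from the counts. Replicates 4 and 6 carry another output file prefix in the labels than the other arrays. On replicate 5, the 24-hour array that shares its prefix with the 6-hour arrays, Npas2 lay 0.40 above the 6-hour mean. Prefix and time overlap in this design, and 1 array cannot separate them. A fit with the prefix as a covariate returned the value of replicate 5 alone at 24 hours (0.61). It is therefore no test, and the part of the prefix in the Npas2 ratios was not tested.

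Cry1 encodes a cryptochrome, the repressor that closes the loop on BMAL1 and its partners. Its ratios were 0.57, 0.72 and 0.15 at 6 hours. They were -0.03, 0.59 and 0.70 at 24 hours. All arrays but replicate 4 lay above 0, and the times overlapped almost fully. The mean was 0.48 ± 0.30 (SD, n = 3) at 6 hours, 1.39-fold, and 0.42 ± 0.40 (n = 3) at 24 hours, 1.34-fold. The difference between the times was -0.06, smaller in size than in all but 16.4% of complete rows, and it was 0.17 without replicate 4, whose 24-hour mean was then 0.65. The row was among the upper values of 4 arrays (81.9 to 91.7% lower) and nearer the middle on replicates 3 and 4 (60.2 and 47.6%).

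Rora encodes the nuclear receptor ROR-alpha, an activator of Arntl. Row 1 had -0.69, -1.36 and -0.42 at 6 hours, and -0.69, -0.42 and -1.94 at 24 hours. It was below 0 on all 6 arrays, lowest on replicates 2 and 6, and the times overlapped. The mean was -0.82 ± 0.49 (SD, n = 3) at 6 hours, 1.77-fold lower than PBS, and -1.02 ± 0.81 (n = 3) at 24 hours, 2.02-fold lower. Without replicate 6 the 24-hour mean was -0.55 and the difference between the times 0.27 in place of -0.19, and with replicate 5 alone at 24 hours the difference was 0.41.

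Row 2 of Rora had 0.16, -0.76 and -0.97 at 6 hours, and -0.67, -0.62 and -0.62 at 24 hours. It was below 0 on every array but replicate 1, as the Arntl row was. The mean was -0.52 ± 0.60 (SD, n = 3) at 6 hours, 1.44-fold lower, and -0.64 ± 0.03 (n = 3) at 24 hours, 1.55-fold lower. Its 3 arrays at 24 hours lay close together, and 1.04% of complete rows had a smaller SD there. Without replicate 1 the 6-hour mean was -0.87, and the difference between the times became 0.23 in place of -0.11.

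The rows of Rora shared their sign on 5 of 6 arrays, which 23.9% of all pairs of rows of 1 gene did on 5 or 6 arrays. Their root mean square difference over the arrays was 0.73, against a median of 0.72 over those pairs. They pointed the same way on those arrays and were no closer in value than the median pair. Averaged, Rora had -0.67 at 6 hours and -0.83 at 24 hours.

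**Figure D2:**
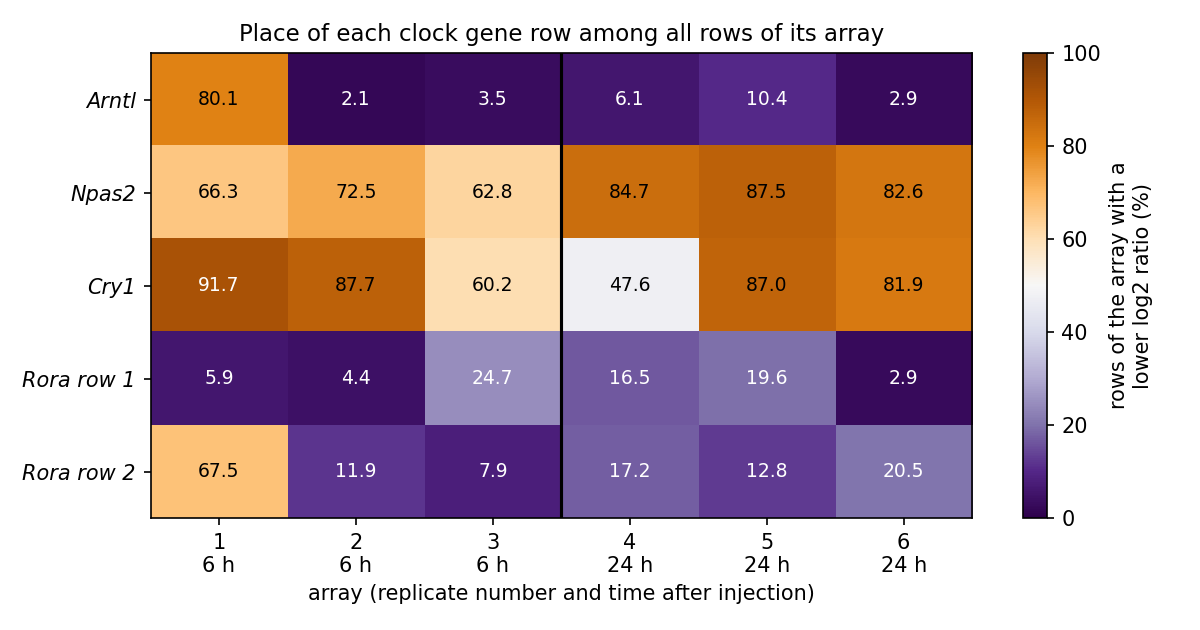
Percentage of the other values on each array (columns, replicates 1 to 3 at 6 hours and 4 to 6 at 24 hours) that were lower than the member row (lines), with ties split evenly, a scale that does not depend on the unequal spread of the arrays. Arntl is among the lowest values on replicates 2 to 6 (2.07 to 10.4%) and at 80.1% on replicate 1, and Npas2 is higher on each 24-hour array than on any 6-hour array.

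Rows of other named genes that followed a member most closely were sought by the root mean square difference of the 6 log2 ratios, over up to 10393 complete rows of named genes. For Arntl these were Polr3e (0.17), Rmnd5a row 3 (0.17) and Naa16 row 2 (0.23). Polr3e, a subunit gene of RNA polymerase III, also lay above 0 on replicate 1 (0.51) and between -1.84 and -0.71 on the other arrays. For Npas2 they were the ETS factor gene Etv1 (0.10), Tmem120a (0.11) and the adhesion receptor gene Adgrf5 (0.11). For Cry1 they were Usp21, a deubiquitinase gene (0.15), Rasa3 (0.16) and the glutathione transferase gene Gstm4 (0.16). For Rora row 1 they were Pnn row 2 (0.20), Fnbp1l (0.27) and Tmem92 (0.27), and for Rora row 2 Chd9 row 3 (0.08), Uba3 row 1 (0.09) and Suz12 row 1 (0.10). No other gene of the clock list was among these nearest rows.

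Among the members themselves, Arntl and Rora row 1 differed by 0.62, and 3.81% of all complete rows were nearer to Arntl and 5.59% nearer to Rora row 1 than that. Arntl and Rora row 2 had the same sign on 6 of 6 arrays and differed by 0.73, with 7.04% of rows nearer to Arntl and 45.6% nearer to Rora row 2. Npas2 and Cry1 differed by 0.39 with the same sign on 5 arrays, and 16.2% of rows were nearer to Npas2 and 5.99% nearer to Cry1. Arntl and Npas2, whose proteins pair, shared their sign on 1 array and differed by 1.79, with 82.5% of rows nearer to Arntl and 97.1% nearer to Npas2. The remaining pairs of an Arntl or Rora row with Npas2 or Cry1 differed by 1.10 to 1.76. Since these ratios chose the members, nothing is read from the distances between them.

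The question whether other parts of the clock differed between GH and PBS was addressed with a list of 37 further clock genes. Of these, 23 had a row of their own, 36 rows in all, and 14 had none under a single symbol, among them Per1, Per2, Nr1d1, Nfil3 and Dbp. Each row was tested with limma over all 19326 rows that held at least 2 values at each time. At 6 hours 0 of the 36 rows passed an adjusted p of 0.05, where 3.38% of all rows passed. An unadjusted p under 0.05 was found for 5 of the 36 rows and for 5125 of all 19326. At 24 hours 5 rows rose and 1 fell, 16.7% of the list against 21.3% of all rows, so the share of clock rows called was not above that of the array. The medians of the 36 rows were 0.01 at 6 hours and -0.08 at 24 hours, beside -0.02 and -0.0001 over all rows.

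Clock itself, whose protein pairs with BMAL1, had 2 rows that disagreed, with values on replicates 2, 3, 4 and 6 alone. Row 1 had -0.74 and -1.32 at 6 hours and -1.18 and -1.64 at 24 hours, below 0 on all 4 arrays. It fell at 24 hours, 2.67-fold (-1.41 ± 0.23, limma SE, n = 2, adjusted p = 0.0255, with 0.0204 to 0.101 over its 8 alternatives), and had -1.03 ± 0.23 at 6 hours (adjusted p = 0.0897). Row 2 had 0.82 and 0.55 at 6 hours and 0.33 and 0.25 at 24 hours, above 0 on all 4. Its means of 0.68 ± 0.17 and 0.29 ± 0.17 did not pass (adjusted p = 0.0995 and 0.252). The rows of Clock therefore gave opposite answers.

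The 4 other repressors of the loop that had a row did not pass at either time with all 6 arrays. Per1, Per2 and Bhlhe41 had no row, and Cry1, as a member, was only described. Cry2, the other cryptochrome gene, had -0.21 ± 0.21 (SE, n = 3) at 6 hours and -0.59 ± 0.21 at 24 hours (adjusted p = 0.542 and 0.0896), and like Arntl was above 0 only on replicate 1 (0.32). Ciart, a repressor of the BMAL1 pair, was below 0 on all 6 arrays (-1.36 to -0.04), with means of -0.38 ± 0.23 and -0.72 ± 0.23 (adjusted p = 0.330 and 0.0702). Per3 had 0.15 ± 0.32 and -0.31 ± 0.32 from 2 arrays each (0.793 and 0.505). Bhlhe40, a competitor for E-boxes, had 0.04 ± 0.27 and 0.31 ± 0.27 (0.937 and 0.408), its highest value on replicate 4 (1.12).

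Of the nuclear receptors that share an element with ROR-alpha, Rorb rose and Nr1d2 did not pass. Rorb, the gene of ROR-beta, had 0.24, 0.93 and 0.62 at 6 hours and 0.78, 0.65 and 0.66 at 24 hours, above 0 on all 6 arrays. Its mean was 0.60 ± 0.15 (SE, n = 3, adjusted p = 0.0811) at 6 hours and 0.70 ± 0.15 (1.62-fold, adjusted p = 0.0284, with 0.0167 to 0.380 over 13 alternatives) at 24 hours. The rows of Rorb and Rora, paralogues, thus lay on opposite sides of 0 on all arrays for row 1 of Rora and on 5 of 6 for row 2. Nr1d2, the gene of the repressor REV-ERB-beta, was below 0 on all 6 arrays (-1.25 to -0.06), with -0.37 ± 0.26 at 6 hours and -0.74 ± 0.26 at 24 hours (adjusted p = 0.391 and 0.0841). Tef, a bZIP factor of the clock's output, had 0.36 ± 0.19 and 0.35 ± 0.19 (0.274 and 0.210).

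Among the kinases, ligases and cofactors 4 of 25 rows rose at 24 hours, where 2401 of all 19326 rows rose and 21.3% passed in either direction. Crebbp row 1, for a histone acetyltransferase, had 1.32 ± 0.16 (SE, n = 2, 2.50-fold, adjusted p = 0.0172, with 0.0123 to 0.159 over 8 alternatives), while row 2 had 0.22 ± 0.15 (0.312). For casein kinase 1 alpha, Csnk1a1 rows 1 and 2 had 1.21 ± 0.26 (2.31-fold, adjusted p = 0.0270, with 0.0104 to 0.259 over 13 alternatives) and 0.95 ± 0.26 (1.93-fold, 0.0469, with 0.0251 to 0.713), and row 3 had -0.17 ± 0.12 (0.320). Btrc row 2, for a ubiquitin ligase subunit, had 0.69 ± 0.18 (1.61-fold, 0.0441, with 0.0319 to 0.783), and its other 3 rows lay between -0.71 and -0.23. Of 9 listed genes with several rows, 5 had rows on both sides of 0 at 24 hours. Over the whole table, pairs of complete rows of 1 gene had 6-array means of the same sign in 50.9%. Mixed signs were thus common on the array, and the count is not read as a trait of the list.

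Of the 6 calls at 24 hours, 4 were lost when certain single arrays were left out. Rorb missed the threshold without replicate 3, 4, 5 or 6, Csnk1a1 row 1 without replicate 4, 5 or 6, Csnk1a1 row 2 without 2, 3, 4 or 6, and Btrc row 2 without replicate 1, 2, 3, 4 or 6. Clock row 1 and Crebbp row 1 held 2 values per time, so that leaving out any of those 4 arrays could not be fitted, and both missed the threshold with the rows of a gene averaged. With the file prefix as a covariate 0 of the 36 rows passed (31 of all rows did, and replicate 5 alone then sets the 24-hour ratio where it has a value). Without replicate 1, 3 of 35 rows of the list rose at 6 hours and 0 fell, where 9.03% of all rows passed. They were Rorb (0.78), Csnk1a1 row 1 (0.96) and Crebbp row 1 (1.03). At 24 hours 4 of the 35 then rose and 2 fell, Cry2 among them (-0.59), where 25.9% of all rows passed. Over all rows, 654 passed at 6 hours and 4116 at 24 hours.

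**Figure D3:**
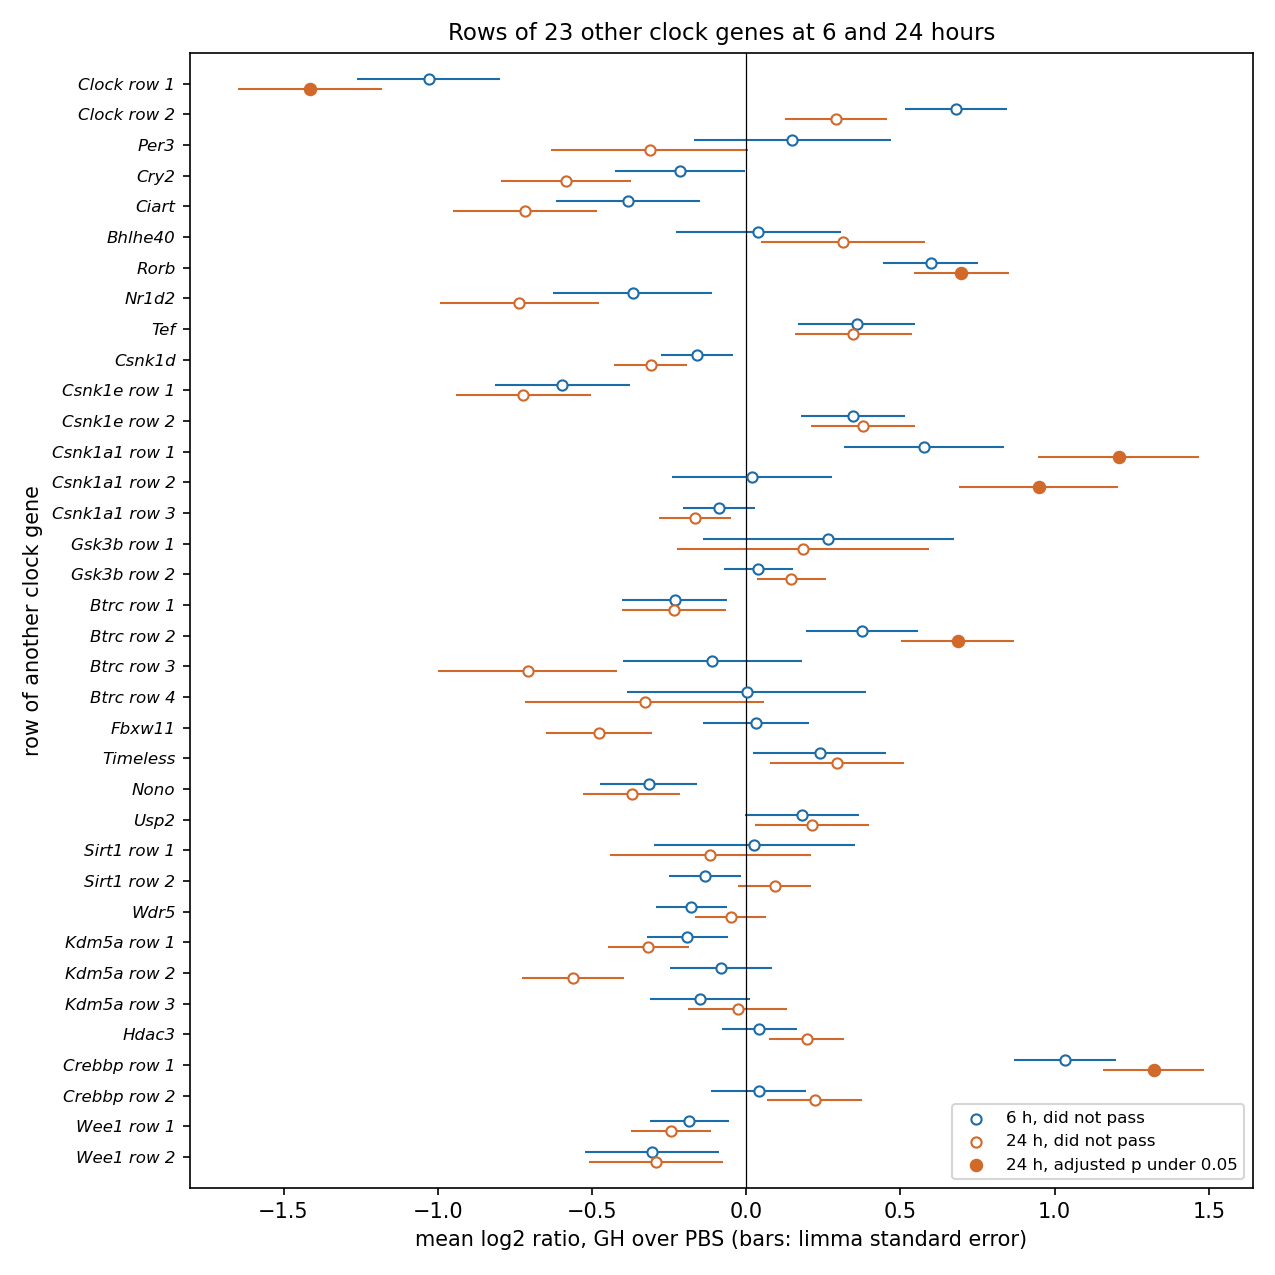
Mean log2 ratio of GH over PBS (horizontal axis) with limma's standard error for the 36 rows of 23 other clock genes, at 6 hours (blue) and 24 hours (orange); filled points passed an adjusted p of 0.05. The 6 filled points are all at 24 hours, and rows of Clock, Csnk1a1 and Btrc lie on both sides of 0.

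The last comparison asked whether the GH over PBS ratio differed between 6 and 24 hours. Of all rows 0% passed with limma (0 of 19326, with 585 at an unadjusted p under 0.05). Among the 36 rows of other clock genes 1 had an unadjusted p under 0.05, Csnk1a1 row 2, with a difference of 0.93 (unadjusted p = 0.0417, adjusted p = 0.980). A miss of the threshold does not show that the times were alike. The differences of the member rows, 24 minus 6 hours, were -0.38 for Arntl, 0.47 for Npas2, -0.06 for Cry1, -0.19 for Rora row 1 and -0.11 for Rora row 2. Of the 36 other rows, 2 of the 32 complete ones had separate times (Csnk1a1 row 2 and Sirt1 row 2), where 8.74% of all complete rows did, so the list did not stand above the array.

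**Figure D4:**
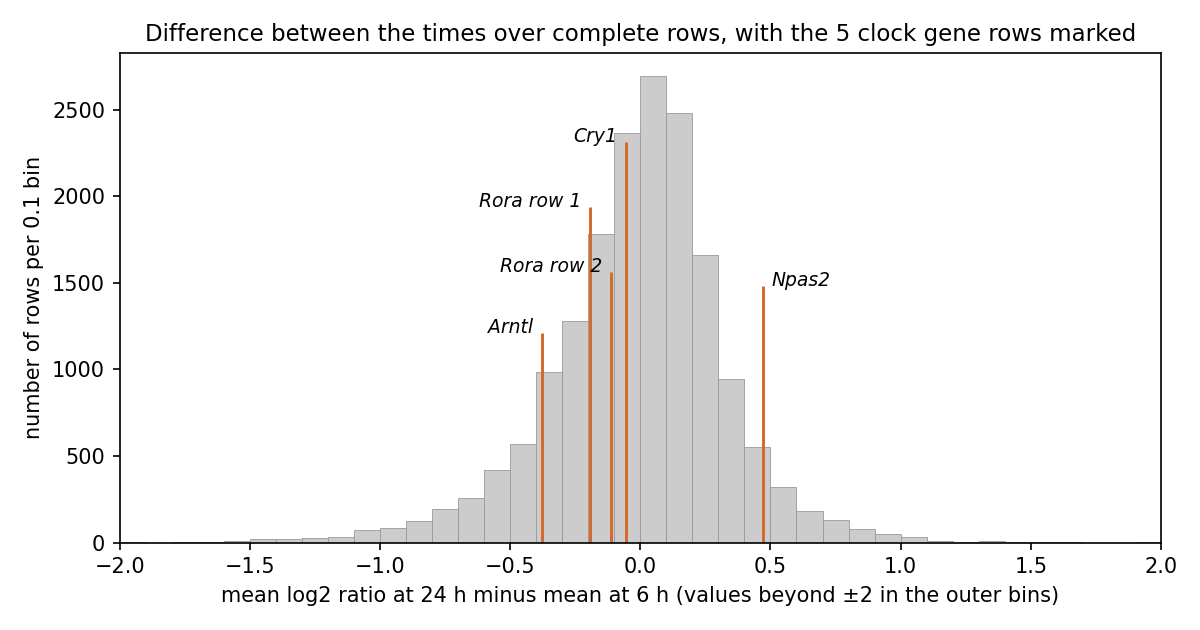
Histogram of the 24-hour mean minus the 6-hour mean of the log2 ratio (horizontal axis) over 17414 complete rows (vertical axis, rows per bin of 0.1), with vertical lines at the 5 member rows; only the position of a line, not its height, is data. Npas2 at 0.47 lies in the upper tail, above 94.5% of rows, and the other members lie between -0.38 and -0.06.

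Other cell types were represented by few rows. Skeletal muscle markers had rows for 7 of 15 genes: all 7 rows had means above 0 at both times, and their median ran from 0.10 on replicates 1 and 5 to 1.22 on replicate 3. Of these rows 0 passed at 6 or 24 hours, where 3.38% and 21.3% of all rows did. Neutrophil lineage markers had 9 rows for 7 of 15 genes: 8 rows had means below 0 at both times, and 4 of the 9 fell at 24 hours, where 1715 of all 19326 rows fell. Osteoblast and osteocyte markers had 5 rows for 4 of 12 genes, and their median lay between -0.64 on replicate 6 and 0.15 on replicate 2. The means of 2 rows were above 0 and of 3 below at 6 hours, all 5 were below at 24 hours, and 0 passed. The part of these cells in the clock gene ratios was not tested.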

How the data were processed

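For every row and array the deposited table gives a log2 ratio, and 2 to the power of each value was a linear ratio with 2 decimals. Per the labels' protocols, an oligo(dT) primer started the linear amplification, and the product carried Cy5 (GH) or Cy3 (PBS). No source used here gives the extraction software, the normalization or the treatment of poor spots. The array medians lay between -0.0145 and 0.0286, so arrays were centred near 0, and their scale was left unequal; the direction is likely, as stated above. Arrays held 18302 to 19961 values, and their number limits the precision.

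Of the rows, 11813 had 1 gene symbol, 559 several and 9074 none; the gene table of GRCm38.p6 matched 11782 and changed 0 symbols. Rows were kept single, as the choice of members was set on rows. The functions lmFit and eBayes of limma 3.58.1 (R 4.3.3) fitted 1 mean per time to all 6 arrays for rows with at least 2 values per time, with two-sided tests and Benjamini-Hochberg adjustment over all rows. The code was tested on simulated data. The comparison of rows of 1 gene with rows of different genes, and the shifted row numbers, were added after the values were seen. The members and lists were chosen with earlier results of these data known. The other clock genes were named if they passed or belonged to the core loops, and the genes most like a member were the nearest 3 rows. Alternatives were median centring, scaling to 1 median absolute deviation, quantile normalization, rows averaged per gene, complete rows only, the file prefix as a covariate, each time fitted alone, and each array left out.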

Additional observations from a re-analysis of the deposited data

How the results depend on the processing

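The count of all rows past the threshold at 6 hours (654, of them 531 higher and 123 lower) became 2016 with arrays scaled to 1 median absolute deviation, 2232 after quantile normalization (1544 higher, 688 lower) and 0 with 6 hours fitted alone (5007 at an unadjusted p under 0.05 in limma). Leaving out 1 array in turn gave 0 to 1727. At 24 hours (4116) it became 31 with the file prefix as a covariate and 2631 with 24 hours fitted alone, and 0 to 4961 without 1 array, the 0 without replicate 6 (4781 at an unadjusted p under 0.05). Of the rows of other clock genes, 0 passed at 6 hours, 3 after scaling, 2 after quantile normalization and 0 to 3 without 1 array. At 24 hours 6 passed, 2 with rows averaged per gene, 0 with the prefix and 0 to 6 without 1 array. Btrc had -0.15 at 24 hours when its 4 rows were averaged, against 0.69 for row 2 alone. The difference between the times had 0 rows past the threshold under all 12 alternatives run. The means of the 5 member rows kept their sign at both times under all 13 alternatives, but several of those could not change a mean. These were leaving out an array of the other time, complete rows only, the time fitted alone and, at 6 hours, the prefix. Averaging rows per gene could not change it either for Arntl, Npas2 and Cry1, with 1 row each. Npas2 and row 1 of Rora had 1 sign on all 6 arrays, so neither leaving out an array nor the prefix could change their sign. No paired analysis was possible because the times share no replicate number. Signal over background is unknown, since no intensities were used here.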

Other observations

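Several rows of the wider clock list lay near a member, by the root mean square difference of the 6 log2 ratios. Npas2 and Btrc row 2 differed by 0.28, and 5.14% of complete rows were nearer to Npas2. Rora row 1 and Csnk1e row 1, for casein kinase 1 epsilon, differed by 0.47, with 1.28% of rows nearer. Cry1 and Tef differed by 0.32 (2.03% nearer), and Rora row 2 and Cry2 by 0.34 (4.86% nearer). These pairs were picked after their values were seen and carry no test. In the RefSeq promoter windows of the listed loop and output genes that had a row, CACGTG occurred at 3 places before the Ciart start (the nearest at -44 to -39) and in both windows of Tef. CACGTT occurred before Cry2 (-166 to -161) and before 1 start of Rorb (-234 to -229). TTANGTAA occurred before Per3 (-205 to -198 and -158 to -151) and before the same start of Rorb (-95 to -88). No match was found for Clock, Bhlhe40, Nr1d2 or Wee1. The shares of all windows that hold these letters are those given above. At 24 hours the means of Ciart, Cry2 and Per3 were below 0 and those of Tef and Rorb above it, and of these genes with a match Rorb alone passed the threshold. A link between the letters and the ratios was not tested.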
